A study of Mus musculus with 12 samples.

Results

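Oxidative phosphorylation, the process by which mitochondria make ATP, is carried out by enzyme complexes I to V. The nuclear genes for their subunits were picked by symbol from the array's annotation: Nduf genes for complex I, Sdha to Sdhd for complex II, Uqcr genes for complex III, Cox5 to Cox8 genes for complex IV and Atp5 genes for complex V. Ndufa4l2 was left out, and 8 of the Nduf symbols (Ndufaf genes) encode complex I assembly factors rather than subunits. The rule found 87 of the 18194 genes named on the array, measured by 176 of 45101 probe sets. Of these, 83 genes with 158 probe sets had a mean level high enough to be tested, among 13067 genes and 27022 probe sets in all. The 4 genes below that level were Cox7b2, Cox8b, Ndufaf6 and Ndufb4. The symbol rule does not take in Cox4i1 and Cox4i2, which encode isoforms of another complex IV subunit and are given apart, and it places Ndufa4, now counted with complex IV, in complex I. Any other nuclear subunit gene whose symbol falls outside the rule was not examined, so the counts by complex may leave out subunits.

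The cells were side population (SP) cells, isolated by their efflux of a DNA-binding dye, a property used to enrich progenitor cells. They came as 6 preparations from mouse extraocular muscle (EOM), the muscle that moves the eye, and 6 from tibialis anterior (TA), a limb muscle. Each preparation was isolated independently and hybridized to its own array after amplification in 2 cycles. Strain, sex, age and genotype of the mice are not given in the sources used here, and no treatment is named. Arrays are called by group and the number in their titles (0, 1, 2, 3, 5 and 6 in each).

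In oxidative phosphorylation, complexes I and II feed electrons from NADH and succinate to ubiquinone, complex III passes them to cytochrome c, and complex IV hands them to oxygen. Complexes I, III and IV pump protons out of the mitochondrial matrix, and complex V, the ATP synthase, uses their return flow to make ATP. Several complex IV and V subunits exist as isoforms from separate genes, some of which are specific to heart and muscle fibres. Many promoters of these genes are known to bind the nuclear factors NRF1, GABP, YY1 and SP1.

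In EOM SP cells, 8 of the 83 genes tested were lower than in TA SP cells: Ndufa12, Ndufc2 and Ndufs8 of complex I, Uqcr10 and Uqcrc2 of complex III, Cox5a and Cox7a2 of complex IV, and Atp5j2 of complex V. That is 9.64% of the genes tested, where 6.81% of all genes tested were lower by the same rule (limma, Benjamini-Hochberg adjusted p under 0.05 over all probe sets). None of the 83 was higher, where 4.05% of all genes were, and at an unadjusted p under 0.05 the counts were 20 lower and 0 higher, where 13.5% of all genes were lower and 10.1% higher by that rule. The share of genes called was near the background. The estimates as a whole lay low: 68 of 83 (81.9%) were below 0, beside 53.1% of all genes tested, and their median log2 fold change was -0.35, beside -0.04 for all genes. These medians and shares carry no test, since the genes share arrays and were chosen with earlier results known. Fold changes are EOM minus TA on the scale log2(signal + 16), which understates the change of dim genes.

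The median level of the 83 genes on an array, as log2(signal + 16), was 8.97 at the lowest, 9.24 at the median and 9.33 at the highest of the EOM arrays. On the TA arrays it was 9.56 at the lowest, 9.72 at the median and 9.97 at the highest, so the groups did not overlap. By complex, the array medians of the groups did not overlap for complexes I and V. They overlapped for complexes II, III and IV and for the complex I assembly factors. In complex IV, EOM 0 had 10.81 and TA 6 had 10.29. The median of all 13067 genes lay between 7.22 and 7.48 on EOM arrays and between 7.33 and 7.53 on TA arrays, and overlapped. In RNA from mixed cells, fewer cells of a type and less RNA per cell cannot be told apart.

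**Figure D1:**
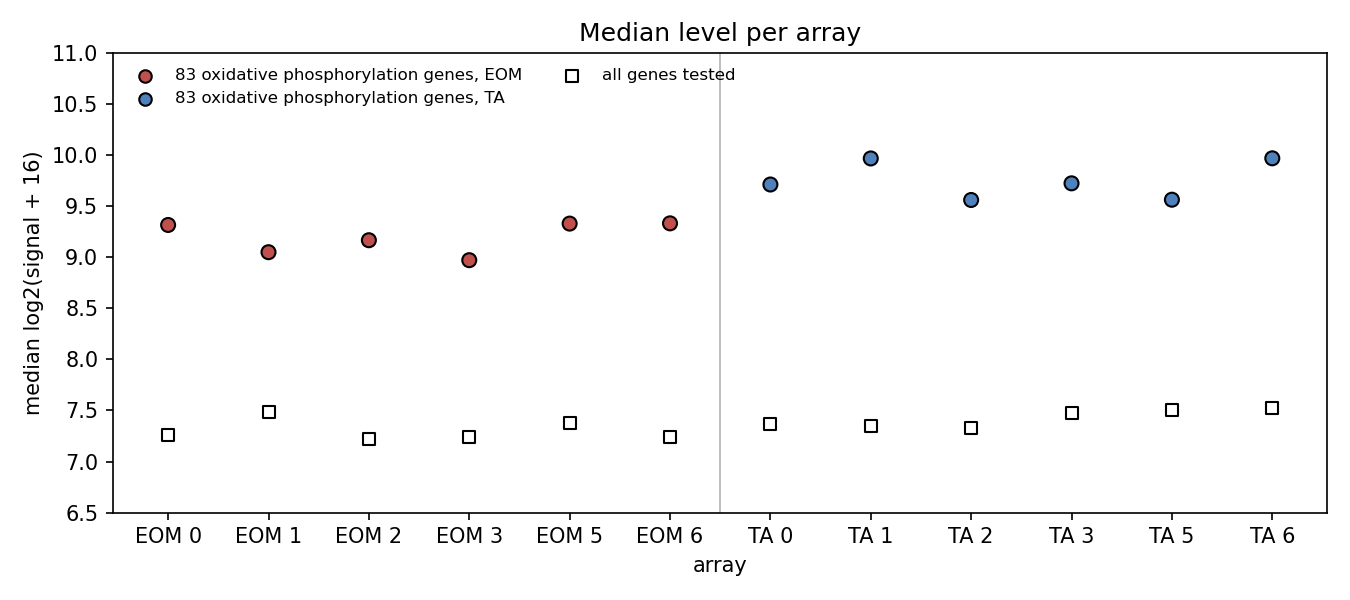
Median log2(signal + 16) on each of the 6 EOM arrays and the 6 TA arrays, for the 83 oxidative phosphorylation genes (circles) and for all 13067 genes tested (squares). The circles of the EOM arrays lie between 8.97 and 9.33, all below those of the TA arrays, at 9.56 to 9.97.

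Some arrays and cell type markers differed in ways that touch these values. The median signal of an array was 31.2 to 43.4 on 9 arrays, and 87.2 on EOM 1, 69.6 on TA 3 and 63.2 on TA 5. EOM 1 also stood apart within the oxidative phosphorylation genes: the SD of its deviations from each gene's mean was 1.18 on the log2 scale, where other arrays had 0.354 to 0.809. The ratio of the 3' to the 5' Gapdh probe set, a measure of RNA shortening, was 9.88 to 24.5 on EOM arrays and 4.92 to 34.5 on TA arrays. Of the endothelial markers 20 of 23 tested were lower in EOM, with summed signals of 4818 to 10168 in EOM and 49511 to 82026 in TA. Pericyte and smooth muscle markers were lower for 8 of 11, with sums of 6518 to 11144 in EOM and 21815 to 39408 in TA, and macrophage and leukocyte markers for 11 of 13, with sums of 549 to 7732 in EOM and 5940 to 24693 in TA. Fibroblast markers were higher for 7 of 13, with sums of 129010 to 225110 in EOM and 71665 to 127200 in TA. Of the satellite cell and myoblast markers 0 of 5 tested changed, with sums of 95.7 to 571.4 in EOM and 264.2 to 560.0 in TA. All 5 estimates were below 0, with a median of -0.58, and Myod1, which drives cells into the myogenic line, had -1.28 (adjusted p = 0.0678 with all arrays and 0.0363 without EOM 1). Of the Schwann cell markers 0 of 3 tested passed in either direction, with sums of 515.9 to 15847 in EOM and 1190 to 2974 in TA. Their median log2 fold change was 0.10 with all arrays and -0.51 without EOM 1. The 2 erythroid markers were too dim to be tested. No marker of these lists was listed at 0 on every array. The part of these markers in the oxidative phosphorylation result was not tested.

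EOM 1 had the largest bearing on the number of genes called. Without it, 19 of the 83 genes were lower (22.9%, where 10.5% of all genes were) and 1 was higher (where 10.0% of all genes were). All 8 genes above were among the 19. Over all genes tested, the 890 that were lower with all arrays were also all lower without EOM 1, so this is not particular to the 8. Without EOM 1, TA 3 and TA 5 together, 17 were lower (where 11.2% of all genes were) and 1 higher (where 10.6% were). The 17 again held all 8, and how many of all lower genes were kept there was not counted. The median over the 83 genes was -0.35 without EOM 1 and -0.36 without the 3 arrays.

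Promoter sequences are shown for 4 of the 5 genes whose difference held whichever array was left out. A pair of ATP synthase genes was added because they carry an NRF1 motif and did not pass the test. The printed windows are therefore no comparison of called genes with others. The RefSeq promoter table (GRCm38.p6) held a window for 74 of the 87 genes, from 250 bases before to 50 bases after the most upstream start. The 150 bases just before that start are printed, 5' to 3' on the gene's strand. Capitals mark matches on either strand to SP1 (GGGCGG), NRF1 (GCGCANGCG), GABP and other ETS factors (CCGGAAG) or YY1 (AANATGGC). The windows are Ndufa12 (chr10:94198885-94199034, plus strand), Uqcr10 (chr11:4704345-4704494, minus strand), Cox5a (chr9:57521082-57521231, plus strand), Atp5j2 (chr5:145191542-145191691, minus strand), Atp5g2 (chr15:102671048-102671197, minus strand) and Atp5h (chr11:115419920-115420069, minus strand).
Ndufa12: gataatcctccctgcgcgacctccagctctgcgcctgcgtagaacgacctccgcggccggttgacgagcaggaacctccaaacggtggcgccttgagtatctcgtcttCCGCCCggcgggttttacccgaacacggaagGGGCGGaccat
Uqcr10: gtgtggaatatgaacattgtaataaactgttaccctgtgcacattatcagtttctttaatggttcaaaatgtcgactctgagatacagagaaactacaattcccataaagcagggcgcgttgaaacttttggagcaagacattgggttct
Cox5a: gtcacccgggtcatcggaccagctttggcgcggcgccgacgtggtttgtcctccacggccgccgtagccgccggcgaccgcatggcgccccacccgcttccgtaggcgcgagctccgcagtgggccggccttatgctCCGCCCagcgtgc
Atp5j2: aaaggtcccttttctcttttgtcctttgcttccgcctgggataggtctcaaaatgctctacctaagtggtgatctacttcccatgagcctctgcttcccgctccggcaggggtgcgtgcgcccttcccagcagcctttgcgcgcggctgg
Atp5g2: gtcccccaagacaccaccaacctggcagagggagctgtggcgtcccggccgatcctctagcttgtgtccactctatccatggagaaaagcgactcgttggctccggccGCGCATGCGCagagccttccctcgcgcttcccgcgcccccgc
Atp5h: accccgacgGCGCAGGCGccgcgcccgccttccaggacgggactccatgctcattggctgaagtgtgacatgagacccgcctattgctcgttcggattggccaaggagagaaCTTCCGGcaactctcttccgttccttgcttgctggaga

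Over whole windows, the NRF1 motif was found in 25.7% of the 74 windows, beside 10.6% of the 14369 windows of all named genes. The ETS motif was found in 24.3%, beside 13.8%, and the YY1 motif in 20.3%, beside 7.19%. The SP1 motif was found in 47.3%, beside 54.1% of the windows of all named genes. Over all 27025 windows of the table, with or without a gene named on the array, the SP1 motif was found in 35.9%. Among the 7 called genes with a window, 0 held the NRF1 motif, 1 the ETS motif (Ndufs8), 2 the YY1 motif (Ndufs8 and Atp5j2) and 3 the SP1 motif (Cox5a, Cox7a2 and Ndufa12). Among the 64 tested and not called, 28.1% held the NRF1 motif, 26.6% the ETS motif, 20.3% the YY1 motif and 46.9% the SP1 motif. Whether called genes differ from these was not tested. In Atp5g2 the capitals are overlapping NRF1 matches, and in Atp5h they are an NRF1 match and, nearer the start, an ETS match. A match is a run of letters and not a measured binding site, and the absence of one says only that these letters are not in the window.

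Regulators of mitochondrial genes, among them Nrf1, Gabpa and Yy1 but not Sp1, were examined as a list. Of the 24 tested, 0 were lower and 0 higher, where 6.81% and 4.05% of all genes were, with a median log2 fold change of -0.04. Nrf1 had a log2 fold change of -0.03 (adjusted p = 0.974) and Gabpa, the DNA-binding subunit of GABP, 0.19 (adjusted p = 0.905). Ppargc1a, a coactivator of mitochondrial genes, had 0.25 (adjusted p = 0.860), Tfam, which packages and transcribes mitochondrial DNA, -0.21 (adjusted p = 0.737), and Esrra, a nuclear receptor that works with Ppargc1a, -0.03 (adjusted p = 0.981). Without EOM 1, 0 of the 24 were lower and 2 higher, where 10.5% and 10.0% of all genes were, and the median was -0.09. The higher ones were Nfe2l2, a regulator of antioxidant genes, with 0.47 with all arrays (adjusted p = 0.705) and 1.01 without EOM 1 (adjusted p = 0.0210), and Sirt1, a deacetylase that acts on Ppargc1a, with 0.54 (adjusted p = 0.724) and 1.20 (adjusted p = 0.0142). Both are named after their values were seen. Without EOM 1 the estimate was 0.72 for Gabpa (adjusted p = 0.0863), -0.21 for Nrf1, -0.10 for Ppargc1a and -0.17 for Esrra.

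Complex I had 34 of its 35 named genes tested, of which 3 were lower and 0 higher, and 31 had an estimate below 0, with a median of -0.48. Beside the counts of each complex, 6.81% of all genes tested were lower and 4.05% higher, or 10.5% and 10.0% without EOM 1. Ndufa12 encodes an accessory subunit of the arm that reaches into the matrix. Its signal in EOM was 297.0 at the lowest, 391.1 at the median and 615.8 at the highest, and in TA 711.2, 899.2 and 1289. All EOM arrays lay below all TA arrays. The log2 fold change was -1.11 ± 0.24 (SE, n = 6 each, limma adjusted p = 0.00587), and it passed with each array left out in turn (adjusted p from 0.000450 to 0.0207). Of the gene's 4 tested probe sets 2 passed, this one and one with -1.27 (adjusted p = 0.00232). The others had -0.59 (adjusted p = 0.234), with groups that overlapped, and -0.155 (adjusted p = 0.912), with mean signals of 27.0 in EOM and 34.8 in TA.

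Ndufc2 encodes an accessory subunit of the membrane arm. In EOM its signal was 806.9 at the lowest, 1790 at the median and 2810 at the highest, and in TA 2280, 3987 and 5362. The groups overlapped through TA 6, the lowest TA array, which was below EOM 5 and EOM 6. Its log2 fold change was -1.06 ± 0.30 (limma adjusted p = 0.0381), and all 3 tested probe sets of the gene passed. The call was kept in 5 of the 12 fits that left out 1 array (adjusted p from 0.0205 to 0.0935).

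Ndufs8 encodes a core subunit whose iron-sulfur clusters lie on the electron path to ubiquinone. On the EOM arrays the signal was 699.1 at the lowest, 929.5 at the median and 1130 at the highest, and in TA 958.1, 1654 and 2337. The lowest TA array, TA 2, lay below 3 EOM arrays. This gave a log2 fold change of -0.85 ± 0.25 (limma adjusted p = 0.0448), 2 of 6 probe sets passed, and the call was kept in 2 of 12 fits without 1 array (adjusted p from 0.0103 to 0.119).

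Within complex I, 13 of 13 tested Ndufa genes, 9 of 10 Ndufb genes, 2 of 2 Ndufc genes and 7 of 9 Ndufs and Ndufv genes had an estimate below 0. Without EOM 1, 11 complex I genes were lower and 1 was higher. The 8 that joined the lower genes then were Ndufa2, Ndufa5, Ndufb7, Ndufb8, Ndufb9, Ndufs7, Ndufv2 and Ndufv3, of which Ndufa2, Ndufa5, Ndufb8, Ndufb9 and Ndufv2 are named because they passed and not by the rule for named genes. Ndufb7, a membrane arm subunit, had a signal of 2694 on EOM 1, while the other EOM arrays had 794.2 to 1037 and the TA arrays 1248 to 3147. Its log2 fold change was -0.78 ± 0.32 with all arrays (limma adjusted p = 0.161) and -1.04 ± 0.23 without EOM 1 (adjusted p = 0.00400). Ndufs7, the core subunit next to the ubiquinone site, had 2941 on EOM 1, 551.3 to 971.8 on the other EOM arrays and 1001 to 3306 on TA arrays. Its log2 fold change was -0.60 ± 0.38 with all arrays (adjusted p = 0.436) and -0.91 ± 0.29 without EOM 1 (adjusted p = 0.0354). Ndufv3, an accessory subunit at the NADH-oxidizing end, had -0.64 ± 0.37 with all arrays (adjusted p = 0.373) and -0.91 ± 0.30 without EOM 1 (adjusted p = 0.0421).

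Ndufs4 stood at the other end of the complex I estimates. It encodes an accessory subunit whose loss in mice gives a fatal brain disease. Its signal in EOM was 96.3 at the lowest, on EOM 1, 457.1 at the median and 586.8 at the highest, and in TA 32.3, 254.1 and 299.6. All EOM arrays but EOM 1 lay above all TA arrays. Its estimate was a log2 fold change of 0.99 ± 0.47 with all arrays (limma adjusted p = 0.258) and 1.34 ± 0.39 without EOM 1 (adjusted p = 0.0221). The other 3 tested probe sets of Ndufs4 had 0.42, 0.11 and -0.33 and did not pass. Ndufb11, a membrane arm subunit, had -0.35 ± 0.30 (adjusted p = 0.613).

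The complex I assembly factors, which help to build the complex and are not part of it, had 7 of 8 genes tested. Of these 0 were lower and 0 higher, 4 had an estimate below 0, and the median was -0.09. Assembly factors of complex I with other names had 0 of 6 lower and 0 of 6 higher (median -0.09), and those of complexes II to V 0 of 30 in either direction (median -0.11). Without EOM 1 the median of complex I was -0.46 and that of its 7 assembly factors -0.05. The complex I assembly factors with other names then had a median of -0.36, with 0 lower and 0 higher. Of those of complexes II to V, 4 of 30 were then lower (13.3%, where 10.5% of all genes were) and 0 higher. Their median was -0.21. Whether subunits and assembly factors differ was not tested.

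**Figure D2:**
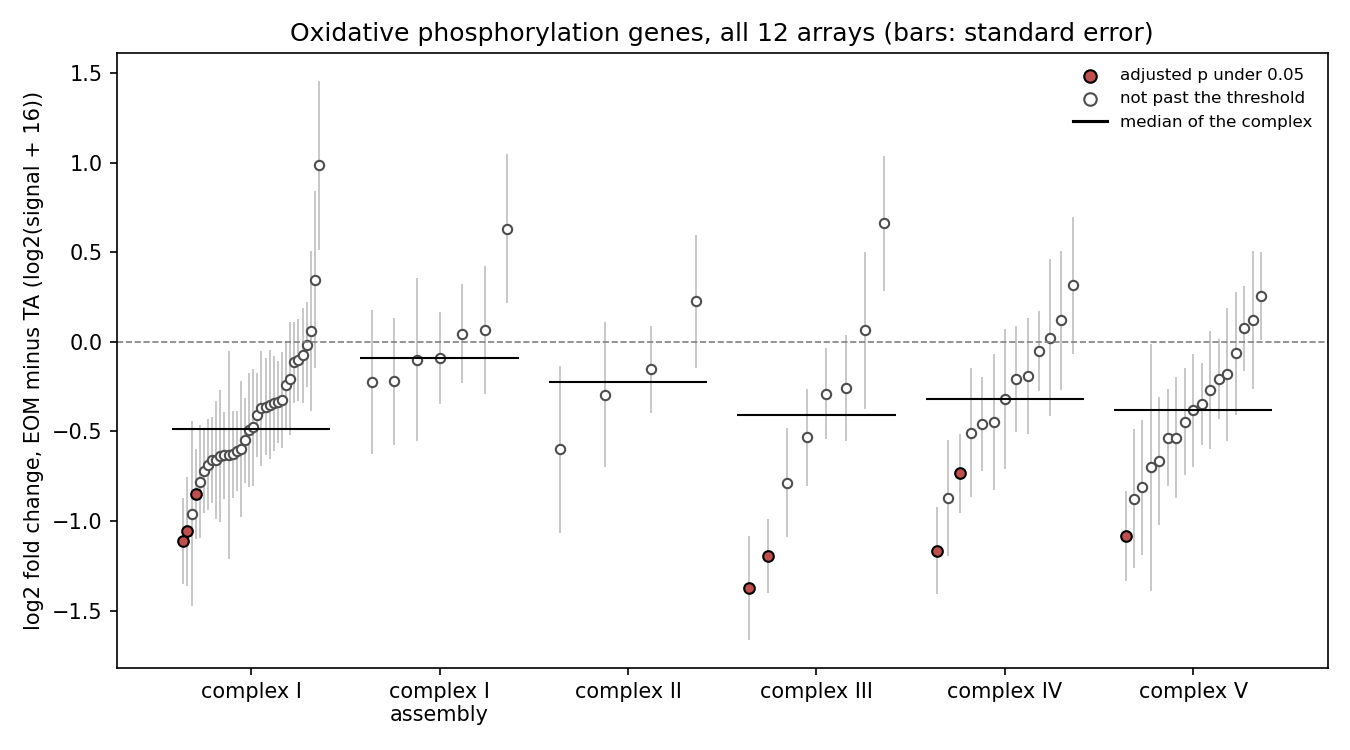
Log2 fold change, EOM minus TA, with its standard error for each of the 83 genes, by complex and in rank order within it, over all 12 arrays. Filled points passed the test (adjusted p under 0.05), and horizontal lines are the medians, from -0.48 in complex I to -0.09 among its assembly factors. The 8 filled points are all below 0.

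Complex II, which is also the succinate dehydrogenase of the tricarboxylic acid cycle, had 0 of 4 genes lower and 0 higher, with a median of -0.22. Sdha, the flavoprotein that oxidizes succinate, had 1260.7, 306.6, 1319.4, 1198.9, 1191.0 and 1357.9 on the EOM arrays 0 to 6, against 417.5 at the lowest and 1267 at the highest TA array. EOM 1 alone lay low, and the log2 fold change was 0.23 ± 0.37 with all arrays (limma adjusted p = 0.837) and 0.56 without EOM 1 (adjusted p = 0.169). The gene's other tested probe sets had -0.40 and -0.17. Sdhb, the iron-sulfur subunit, had 609.3 to 878.9 in EOM and 614.0 to 1374 in TA, with a log2 fold change of -0.15 ± 0.24 (adjusted p = 0.829). The membrane anchors gave -0.29 ± 0.40 for Sdhc (adjusted p = 0.793) and -0.60 ± 0.47 for Sdhd (adjusted p = 0.557). Without EOM 1 the log2 fold change of Sdhd was -0.08 and that of Sdhc -0.13, and the median of the complex was -0.11.

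Complex III had 2 of 8 genes lower and 0 higher, with a median of -0.41. Uqcrc2 encodes a core protein on the matrix side of the complex. Its signal in EOM was 920.7 at the lowest, 1140 at the median and 1431 at the highest, and in TA 2379, 2703 and 2771. The groups were widely apart, and the mean of EOM was 0.437 of that of TA. The log2 fold change was -1.20 ± 0.21 (limma adjusted p = 0.000884), the smallest adjusted p among the 83 genes. It passed with each array left out in turn (adjusted p from 0.000140 to 0.00437). The gene's other tested probe set had -0.40 (adjusted p = 0.663), and the mean over both had -0.80 (adjusted p = 0.0534).

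Uqcr10 encodes a small membrane subunit of complex III. EOM arrays had a signal of 48.4 at the lowest, 92.0 at the median and 127.4 at the highest, and in TA 152.6, 242.1 and 426.8. All EOM arrays lay below all TA arrays. This gave a log2 fold change of -1.37 ± 0.29 (limma adjusted p = 0.00498), and it passed with each array left out in turn (adjusted p from 0.00303 to 0.0165). The gene's other tested probe set, with mean signals of 32.7 in EOM and 57.1 in TA, had -0.21 (adjusted p = 0.904), and the mean over both had -0.79 (adjusted p = 0.229). Uqcrb, a ubiquinone-binding subunit, had -0.29 ± 0.26 with all arrays (adjusted p = 0.627) and -0.44 without EOM 1. Uqcrh, the hinge protein that helps cytochrome c to dock, had 188.1 to 366.0 in EOM and 83.5 to 443.1 in TA, with 0.66 ± 0.38 (adjusted p = 0.368).

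Complex IV had 13 of its 15 genes tested, 2 lower and 0 higher, with a median of -0.32. Without EOM 1, 4 were lower and the median was -0.56. Cox5a encodes a matrix-facing subunit. Its signal in EOM was 1519 at the lowest, 1811 at the median and 2201 at the highest, and in TA 2597, 4588 and 5753. The EOM arrays lay close together and below all TA arrays. The log2 fold change was -1.17 ± 0.24 (limma adjusted p = 0.00473), and it passed with each array left out in turn (adjusted p from 0.00164 to 0.0147). A further probe set had -1.18 (adjusted p = 0.00328), and the remaining one had -0.82 (adjusted p = 0.205).

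Cox7a2 encodes the widely expressed isoform of a small subunit of which Cox7a1 is the heart and muscle isoform. In EOM its signal was 1355 at the lowest, 1687 at the median and 1912 at the highest, and in TA 2293, 2559 and 4040. The groups did not overlap on this probe set or on the gene's other tested probe set. Its log2 fold change was -0.73 ± 0.22 (limma adjusted p = 0.0495), and the other probe set had -0.71 (adjusted p = 0.0437). The call was kept in 1 of 12 fits without 1 array, that without EOM 1 (adjusted p from 0.0124 to 0.122). Cox7a2l, a relative that joins complexes III and IV into supercomplexes, had -0.05 ± 0.22 (adjusted p = 0.948).

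The isoforms of muscle fibres were dim in both groups. Cox7a1 had 18.4 to 35.9 on the EOM arrays other than EOM 1, 105.1 on EOM 1 and 23.1 to 95.9 on TA arrays, with a log2 fold change of -0.32 ± 0.39 (limma adjusted p = 0.754). Cox6a2, the heart and muscle isoform of another subunit, averaged 71.0 ± 48.8 in EOM and 73.7 ± 47.4 in TA (SD, n = 6 each), with 0.02 ± 0.44 (adjusted p = 0.989). Cox8b, the muscle isoform of a further subunit, averaged 24.5 in EOM and 13.3 in TA and was not tested. Without EOM 1 the estimate was -0.57 for Cox7a1 and -0.22 for Cox6a2. The list of myofibre markers, which includes Cox7a1, Cox6a2 and Cox8b, was also dim. Of its 21 genes 11 were tested and 1 was lower (Acta1, the skeletal muscle actin, -1.66, adjusted p = 0.0292). The summed signals of the list were 474.0 to 1961 in EOM and 684.1 to 1944 in TA.

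Among the widely expressed isoforms, Cox6b1 had 1169 at the lowest, 1912 at the median and 4705 at the highest in EOM, and 2494, 3363 and 6400 in TA. The highest EOM value was that of EOM 1. The log2 fold change was -0.87 ± 0.32 with all arrays (limma adjusted p = 0.122) and -1.12 ± 0.25 without EOM 1 (adjusted p = 0.00403). Cox6a1, on which EOM 1 was also highest, had -0.51 ± 0.36 with all arrays (adjusted p = 0.502) and -0.81 without EOM 1 (adjusted p = 0.0349). Cox8a had -0.19 ± 0.32 (adjusted p = 0.845), and Cox5b had -0.46 ± 0.26 (adjusted p = 0.372). The isoforms known from testis, Cox6b2 and Cox8c, had 0.12 ± 0.39 (adjusted p = 0.929) and -0.45 ± 0.38 (adjusted p = 0.606). Without EOM 1 they were -0.05 for Cox6b2 and -0.74 for Cox8c. Cox7c had 0.32 ± 0.38 (adjusted p = 0.752). Cox4i1, the widely expressed isoform outside the symbol rule, averaged 3804 ± 1158 in EOM and 4631 ± 730 in TA (SD, n = 6 each), with -0.35 ± 0.28 with all arrays (adjusted p = 0.571) and -0.11 without EOM 1, and Cox4i2 was below the level tested.

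**Figure D3:**
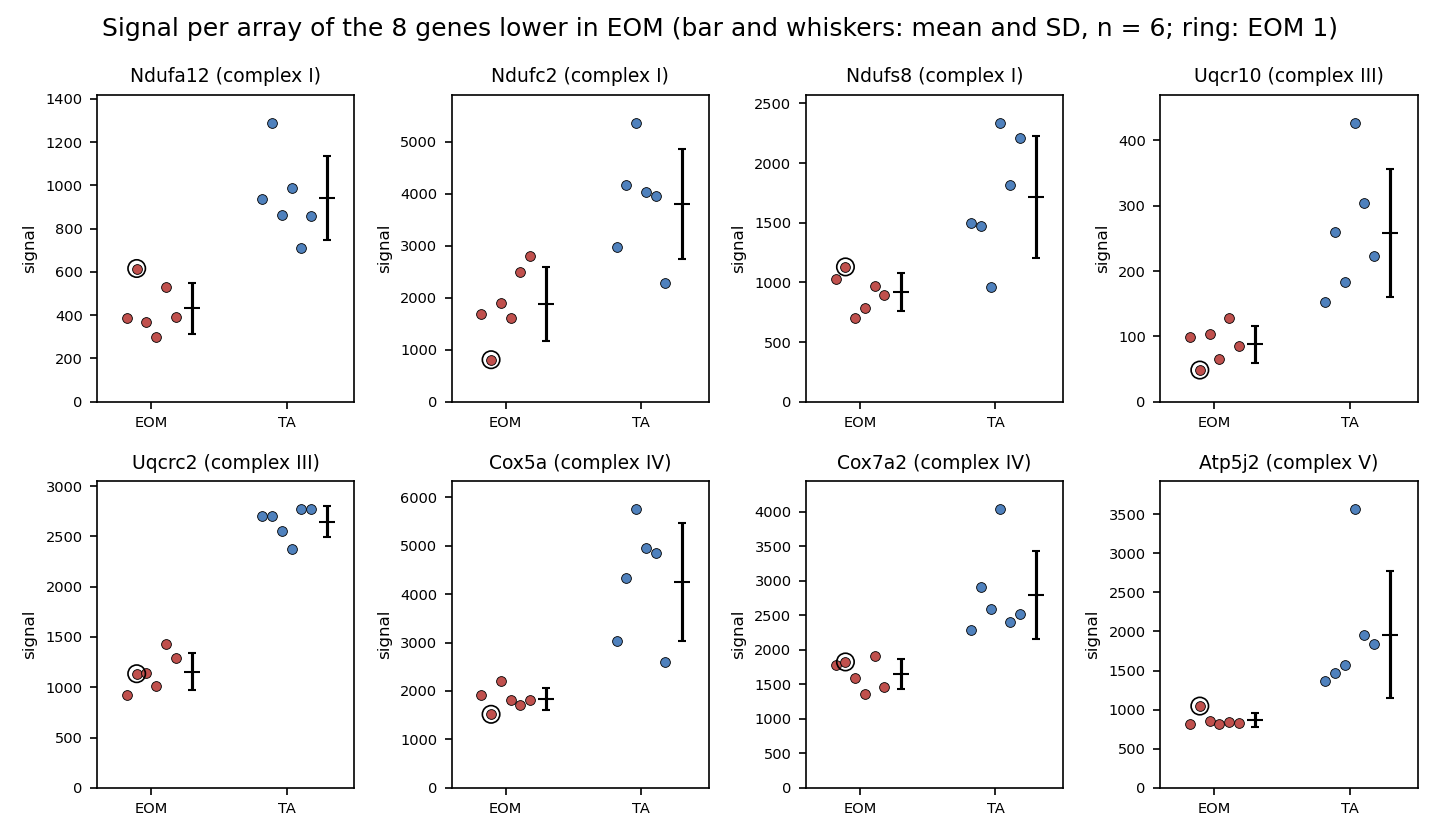
Signal of the 8 genes that were lower in EOM, on each of the 6 EOM arrays and the 6 TA arrays, with the mean and SD of each group and a ring around EOM 1. The groups do not overlap for Ndufa12, Uqcr10, Uqcrc2, Cox5a, Cox7a2 and Atp5j2, and overlap for Ndufc2 and Ndufs8.

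Complex V had 1 of 17 genes lower and 0 higher, with a median of -0.38. Without EOM 1, 2 were lower and the median was -0.29. Atp5j2 encodes subunit f of its membrane part. On the EOM arrays the signal was 819.6 at the lowest, 836.9 at the median and 1047 at the highest, and in TA 1368, 1703 and 3564. The EOM arrays lay close together and below all TA arrays, of which TA 3 was the highest. This gave a log2 fold change of -1.08 ± 0.25 (limma adjusted p = 0.00924), and it passed with each array left out in turn (adjusted p from 0.00187 to 0.0263). The gene's other 2 tested probe sets had -0.91 (adjusted p = 0.0736), with groups that did not overlap, and 0.08 (adjusted p = 0.970). The mean over the gene's probe sets had -0.64 (adjusted p = 0.266).

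The catalytic head of complex V did not pass the test. Atp5a1, its alpha subunit, had 2997 at the lowest, 4984 at the median and 5953 at the highest in EOM, and 2674, 4199 and 4724 in TA, with a log2 fold change of 0.25 ± 0.25 with all arrays (limma adjusted p = 0.669) and 0.39 without EOM 1. Atp5b, its beta subunit, is named after its values were seen: EOM 1 had 49.9, the other EOM arrays had 1886 to 2811 and the TA arrays 1071 to 3655. For Atp5b the log2 fold change was -0.70 with all arrays and 0.14 without EOM 1, with an adjusted p of 0.678 and 0.778. Atp5c1, the gamma subunit that turns within the head, had -0.87 ± 0.39 with all arrays (adjusted p = 0.212) and -0.48 without EOM 1 (adjusted p = 0.182).

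The genes Atp5g1, Atp5g2 and Atp5g3 encode the same mature c subunit of the rotor ring. Their log2 fold changes were -0.45 ± 0.30 for Atp5g1 (limma adjusted p = 0.471), -0.54 ± 0.27 for Atp5g2 (adjusted p = 0.293) and -0.27 ± 0.33 for Atp5g3 (adjusted p = 0.756). Without EOM 1 they were -0.43, -0.65 and, for Atp5g3, 0.06. Atp5h, subunit d of the stalk, had -0.21 ± 0.22 (adjusted p = 0.709). Atp5k, subunit e of the membrane part, had 413.4 to 1874 in EOM and 653.5 to 2268 in TA. Its log2 fold change was -0.66 ± 0.36 with all arrays (adjusted p = 0.332) and -0.91 ± 0.30 without EOM 1 (adjusted p = 0.0440).

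**Figure D4:**
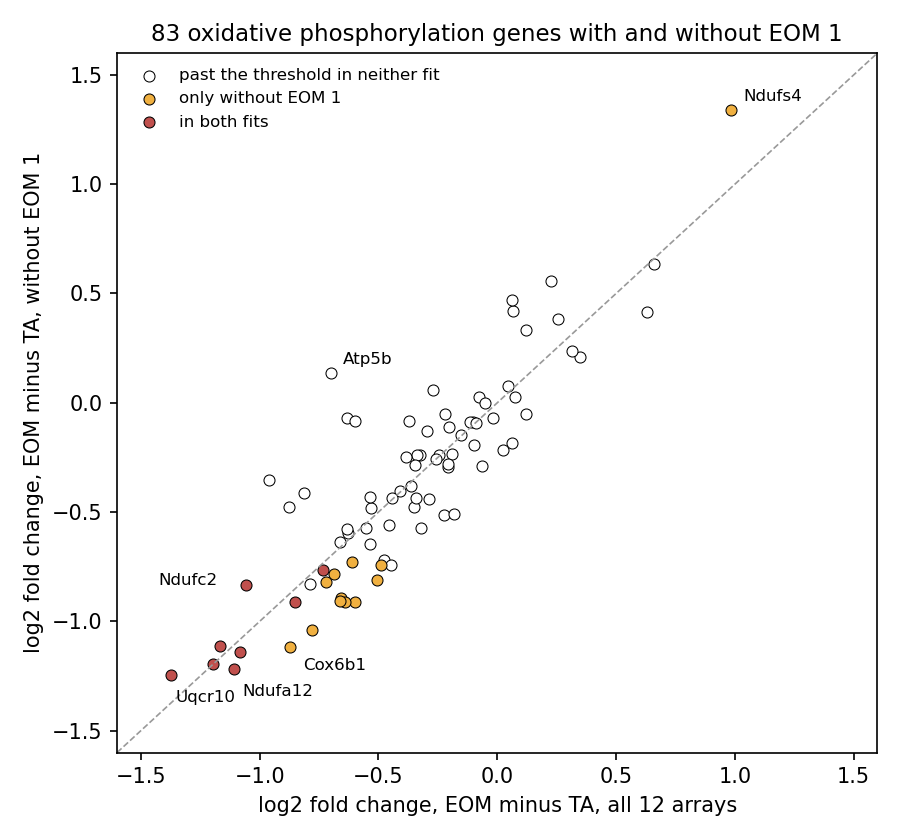
Log2 fold change, EOM minus TA, of the 83 genes with all 12 arrays (horizontal) and without EOM 1 (vertical), with the line of equality dashed. The 8 genes past the threshold in both fits lie at the lower left, a further 11 passed below 0 only without EOM 1, and Ndufs4 passed above 0 only without it.

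Counting the groups that do not overlap gave a further view that needs no model. In 6 of the 83 genes (7.23%) all EOM arrays lay below all TA arrays, where this held for 4.80% of all genes tested, and in 0 they lay above, where this held for 2.33%. The 6 were Ndufa12, Uqcr10, Uqcrc2, Cox5a, Cox7a2 and Atp5j2. The share was near the background.

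Probe sets of the same gene did not always move together. Of the 158 tested probe sets 14 were lower (8.86%, where 5.03% of all tested probe sets were). Of the 46 genes with several tested probe sets, 16 had estimates of both signs, 6 had some probe sets past the threshold and others not, and 0 had calls in both directions. The ending of a probe set's name tells how far its probes are shared: those in _at target a transcript alone, those in _a_at several transcripts of a gene, those in _s_at several similar transcripts, and those in _x_at hold probes that can bind unrelated or near-identical sequences. Lower calls were made for 2 of 74 probe sets in _at (2.70%), 4 of 38 in _a_at, 3 of 19 in _s_at and 5 of 27 in _x_at. Over all tested probe sets the shares were 4.60% in _at, 5.56% in _a_at, 7.26% in _s_at and 6.92% in _x_at. The probe sets used for Ndufa12 and Ndufs8 end in _x_at, and those for Ndufc2 and Atp5j2 in _s_at, so these values may include signal from similar sequences, which was not tested. The other probe set of Ndufa12 that passed also ends in _x_at, and those of the gene that did not pass end in _s_at and _at.

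**Figure D5:**
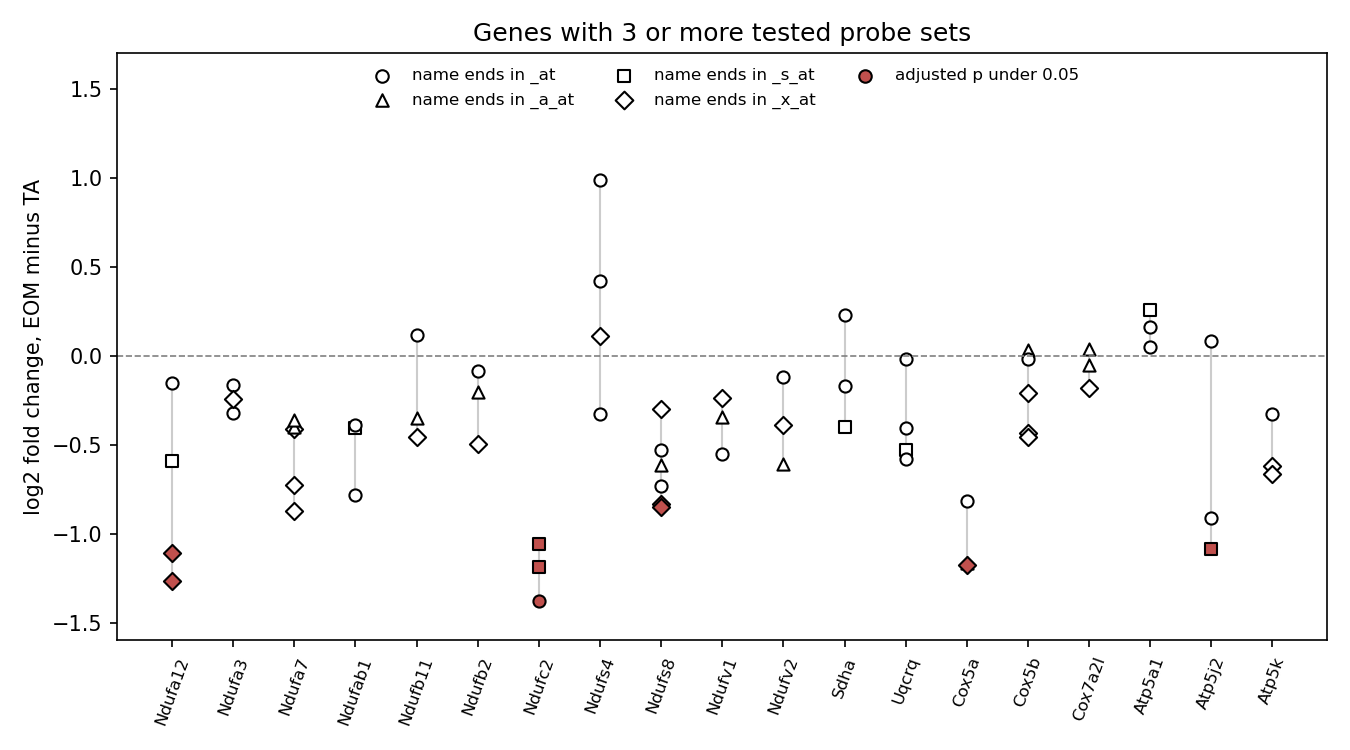
Log2 fold change, EOM minus TA, of every tested probe set of the 19 genes with 3 or more of them, by the ending of the probe set's name, over all 12 arrays. Filled points passed the test. All 3 probe sets of Ndufc2 passed, while those of Ndufs4, Atp5j2 and Ndufa12 spread widely.

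Genes around the respiratory chain were examined as lists. Beside them, 6.81% of all genes tested were lower and 4.05% higher with all arrays. Without EOM 1 these shares were 10.5% and 10.0%. Of cytochrome c and the carriers that link the chain to the cytosol, 1 of 8 tested was lower and 0 higher, with a median log2 fold change of -0.29. The lower one was Vdac1, the channel of the outer mitochondrial membrane, with 884.5 to 1675 in EOM and 1868 to 7572 in TA and -1.29 ± 0.32 (limma adjusted p = 0.0150). Cycs, cytochrome c itself, had 1882 to 2787 in EOM and 2701 to 5718 in TA, with -0.75 ± 0.24 (adjusted p = 0.0666 with all arrays and 0.0331 without EOM 1). Without EOM 1, 2 of the 8 were lower and 1 higher, and the median was 0.01. The higher one was Slc25a4, the heart and muscle isoform of the carrier that exchanges ADP and ATP, named after its values were seen. It had 1541 on EOM 1, 3991 to 5015 on the other EOM arrays and 1424 to 3226 on TA arrays, with 0.70 with all arrays (adjusted p = 0.203) and 0.95 without EOM 1 (adjusted p = 0.00466).

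Of the tricarboxylic acid cycle and pyruvate dehydrogenase genes 2 of 20 were lower and 0 higher, with a median of -0.16. Both encode subunits of the NAD-linked isocitrate dehydrogenase. Idh3g had 922.7 to 1575 in EOM and 1764 to 2064 in TA, without overlap, with -0.80 ± 0.21 (limma adjusted p = 0.0262). Idh3b had 672.1 to 1143 in EOM and 1231 to 1915 in TA, also without overlap, with -0.77 ± 0.22 (adjusted p = 0.0381). Cs, citrate synthase, often used as a measure of mitochondrial content, had -0.58 ± 0.31 (adjusted p = 0.328 with all arrays and 0.0294 without EOM 1). Without EOM 1, 5 of the 20 were lower and 2 higher, where 10.5% and 10.0% of all genes were, and the median was 0.03. The higher ones, named after their values were seen, encode the E1 component of pyruvate dehydrogenase. Pdhb had 0.69 with all arrays (adjusted p = 0.332) and 1.07 without EOM 1 (adjusted p = 0.00251), and Pdha1 had 0.56 with all arrays (adjusted p = 0.434) and 0.91 without EOM 1 (adjusted p = 0.00514).

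The mitochondrial ribosomal proteins translate the subunits encoded in mitochondrial DNA. Of their 76 genes, 4 were lower (5.26%, where 6.81% of all genes were) and 0 higher (where 4.05% were). Of them, 56 had an estimate below 0, with a median of -0.20. The largest changes were those of Mrpl44, with -1.28 ± 0.32 (limma adjusted p = 0.0171), Mrpl46, with -1.18 ± 0.35 (adjusted p = 0.0473), and Mrps18c, with -0.93 ± 0.25 (adjusted p = 0.0280). Of mitochondrial import genes 0 of 24, and of coenzyme Q synthesis genes 0 of 11, passed in either direction, with medians of -0.15 and -0.18. Without EOM 1, 0 genes of either list were lower and 1 of each was higher, where 10.0% of all genes were higher. The medians were then -0.07 for import and -0.03 for coenzyme Q synthesis. The array named 1 subunit encoded in mitochondrial DNA, ND5 of complex I, with 468.0 to 984.4 in EOM and 452.4 to 3237 in TA. Its log2 fold change was -1.17 ± 0.38 (adjusted p = 0.0693 with all arrays and 0.0472 without EOM 1).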

How the data were processed

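RNA of SP cells from EOM (6 arrays) and TA (6 arrays) was measured on Affymetrix Mouse 430 version 2.0 arrays. The authors deposited 1 linear signal intensity per probe set, made with MAS5, per the labels. All columns share a trimmed mean (2% off either end) of 150, so each array had been scaled before deposit. Probe sets were named through the platform annotation (34958 with 1 symbol, 932 with several and 9147 with none, controls left out). Only those with 1 symbol were named.

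Signals were taken as log2(signal + 16), leaving out 64 controls and the dimmest 40% of probe sets by mean log2 value. The 12 arrays were fitted by group in limma (version 3.58.1, R 4.3.3; empirical Bayes with an intensity trend, two-sided), with Benjamini-Hochberg adjustment over all 27022 probe sets and a threshold of 0.05. All adjusted p-values are from limma, and the fit was tested on simulated data. A gene is represented by its brightest probe set. Precision is limited by the number of arrays.

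The members, the gene lists and the tests were chosen with earlier results of these data known. Genes named with values were those past the threshold with all arrays, those past it without EOM 1 with the largest change, the brightest and the most changed gene of each complex, isoform sets, complex II, genes whose probe sets disagreed most, and up to 3 called genes of each list. Alternatives changed the added constant, normalization, filter, variance model, array weights, blocking, a covariate for RNA shortening, the choice of probe set and the arrays included. Promoter windows are RefSeq's (GRCm38.p6). The build behind the array's probes is not given in the sources used here.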

Additional observations from a re-analysis of the deposited data

Results flagged for a closer look

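Among the genes named above with values, 128 groups of 6 arrays (42 oxidative phosphorylation genes and 22 others, each in EOM and in TA) were examined for an array far from the other 5, by the gap to its nearest neighbour over the whole range. An array stood apart in 28 groups of 25 genes, by a cutoff that about 1 in 20 groups of independent, normally distributed values would pass. The groups here share arrays and are not independent. In 23 of the 28 it was EOM 1, which was highest in 10 and lowest in 13. Several genes were named because EOM 1 bears on them, so these counts are a description.

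Among oxidative phosphorylation genes, EOM 1 was the lowest EOM array for Sdhd, with a signal of 8.7 where the others had 153.1 to 238.0, for Sdha, with 306.6 where the others had 1191 to 1358, and for Atp5b, with 49.9 where the others had 1886 to 2811. It was lowest for Ndufs4, with 96.3 (others 405.4 to 586.8), Atp5c1, with 392.1 (others 1448 to 2722), and Atp5g3, with 1006.1 (others 3323 to 4635). It was the highest for Cox6a1, with 20241 (others 4338 to 7501), Ndufs7, with 2940.9 (others 551.3 to 971.8), Ndufb7, with 2694.1 (others 794.2 to 1037), and Ndufb9, with 4100.9 (others 1243 to 1760). Ndufa5, with 3501.9 (others 929.7 to 1369), and Ndufv2, with 895.5 (others 484.2 to 579.1), were also highest there. The same held for Cox8c, with 322.1 (others 62.4 to 109.9), Cox7a1, with 105.1 (others 18.4 to 35.9), and Atp5j2, with 1046.5 (others 819.6 to 850.6).

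Of the other genes, EOM 1 was lowest for Cox4i1, with 1522.1 (others 3856 to 4792), Slc25a4, with 1541.2 (others 3991 to 5015), Pdha1, with 269.1 (others 1067 to 1427), and Pdhb, with 584.5 (others 2455 to 3440). It was lowest for Gabpa, with 111.1 (others 925.8 to 1248), Nfe2l2, with 348.4 (others 2475 to 4605), and Sirt1, with 95.8 (others 1660 to 1905), and highest for Nrf1, with 271.2 (others 107.8 to 143.5).

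Among the other arrays, TA 3 was the lowest TA array for Atp5c1, with 1736.1 (others 2848 to 3719), and the highest for Atp5j2, with 3564.4 (others 1368 to 1951). TA 5 was the lowest TA array for Ndufs4, with 32.3 (others 144.1 to 299.6). EOM 6 was the lowest EOM array for Cox7c, with 28.9 (others 59.6 to 84.6), and EOM 3 the highest for ND5, with 984.4 (others 468.0 to 612.4). EOM 1, TA 3 and TA 5 were also the arrays with the highest median signal.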

How the results depend on the processing

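With all arrays, 8 oxidative phosphorylation genes were lower in EOM and 0 higher. The lower count was 5 with each array centred on its median, with no filter, with no intensity trend and with the Gapdh ratio as a covariate, 19 with array weights and 17 without EOM 1, TA 3 and TA 5. The higher count was 1 with array weights and 1 without those 3 arrays. Leaving out each array in turn gave 5 to 19 lower and 0 to 1 higher: 5 without EOM 0, EOM 2, EOM 3, TA 1, TA 3 or TA 5, 19 lower and 1 higher without EOM 1, and 6 without any other. Ndufa12, Uqcr10, Uqcrc2, Cox5a and Atp5j2 passed in all 12 of these fits. Averaging a gene's probe sets gave 6 lower and ended the calls of Uqcrc2, Uqcr10 and Atp5j2. Of all probe sets, 2225 passed with all arrays, 5488 with array weights, 4675 without the 3 arrays and 1579 to 4361 with 1 array left out, the highest without EOM 1. The cause of these moves was not tested. No call reversed its direction. The median over the genes stayed between -0.43 and -0.25. Median centring moved the median of all genes to 0.06, where it was -0.04, and that of the oxidative phosphorylation genes to -0.25. It shifts all genes of an array alike, so the difference of -0.31 between these medians could not change and is no further support.

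Replicate numbers are shared by EOM and TA, but same-numbered arrays did not deviate together (correlations over genes from -0.32 to 0.16), so the numbers were not used as pairs. With the replicate block as a fixed term 5 genes were lower, and as a random effect 6.

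Present and absent calls were not analysed here, so whether dim genes such as Cox6b2, Cox7a1 and Cox7c lay above background is not known. No scan dates were used.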
